A study of Mus musculus with 4 samples.

Results

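VEGF, angiopoietin and apelin signalling is described here through 10 genes chosen by symbol out of the 31053 genes counted in each library. They are the receptors Kdr, Flt1, Tek and Tie1, the co-receptor Nrp1, and the ligands Vegfa, Angpt1, Angpt2, Pgf and Apln. All 10 were found once in the gene list. The measurement was droplet single-cell RNA sequencing of the brain hemisphere on the operated side in male C57/BL6 mice of 8 weeks, with 4 libraries and 1 library per group. The control library came from sham-operated mice and the other 3 from mice 1, 3 and 7 days after transient middle cerebral artery occlusion (tMCAO), in which a filament blocks the artery and is then withdrawn so that blood returns. The hemispheres were digested with papain and cleared of myelin debris in Percoll, a density medium. The design text places the sham library at day 7, and the number of mice behind each library is not given in the sources used here.

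In blood vessels, VEGF-A binds the receptor tyrosine kinase VEGFR2, the product of Kdr, which drives endothelial growth and permeability. VEGFR1, the product of Flt1, binds the same ligand with less signalling and also binds placental growth factor, the product of Pgf. Angiopoietin-1 from mural cells activates Tie2, the product of Tek, and keeps vessels quiet and tight, whereas angiopoietin-2 can oppose it. Apelin, the product of Apln, is a peptide made by sprouting endothelium and acts on the receptor Aplnr.

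After filtering, 44360 of 59429 cell barcodes were kept, with 7562 in the sham library, 13376 on day 1, 9378 on day 3 and 14044 on day 7. The kept cells of a library held between 31155145 and 45258075 UMIs (unique molecular identifiers, 1 per captured transcript) in all. The cells fell into 33 clusters, of which 27 were named from marker genes as 16 classes and 6 were left unnamed. Of the classes, 9 had at least 50 cells in every library. Endothelial-like cells were the most numerous in this clustering, with 3732 cells in sham and 5265, 4459 and 6611 cells on days 1, 3 and 7. The cell annotation of the study was not used here, and the make-up of the classes, microglia among them, differs from the study's, which may come from the rebuilt names and from cell sets that are not identical. Values given as a row of 4 below follow the same order. Levels are given as CPM, the UMIs of a gene per 1000000 UMIs of a class. With 1 library per group no test between groups was possible, and library and day cannot be told apart. The 95% intervals cover counting error only and say nothing of the spread between animals. Pairs of libraries shared 33 to 88 cell barcodes, at most 0.562% of the smaller library.

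The 4 receptor tyrosine kinases had 1 main source, whereas Nrp1 and most ligands had several, some of them shared. Kdr, Flt1, Tek and Tie1 had their highest mean level in endothelial-like cells, and no other class reached 0.25 of it. Pgf, Angpt1 and Angpt2 were highest in vascular smooth muscle-like cells, Vegfa in astrocyte-like cells, and Apln in astrocyte-like and oligodendrocyte-like cells, with endothelial-like cells above both kinds of glia on day 1. Endothelial-like cells also carried Angpt2, at a mean of 14.4 CPM against 41.0 in vascular smooth muscle-like cells, so that they held both receptors and ligands. Astrocyte-like cells also carried Angpt1, at a mean of 21.0 CPM against 61.0 in vascular smooth muscle-like cells. Nrp1 was spread over endothelial-like cells, border macrophage-like cells, astrocyte-like cells, microglia-like cells and pericyte-like cells.

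**Figure D1:**
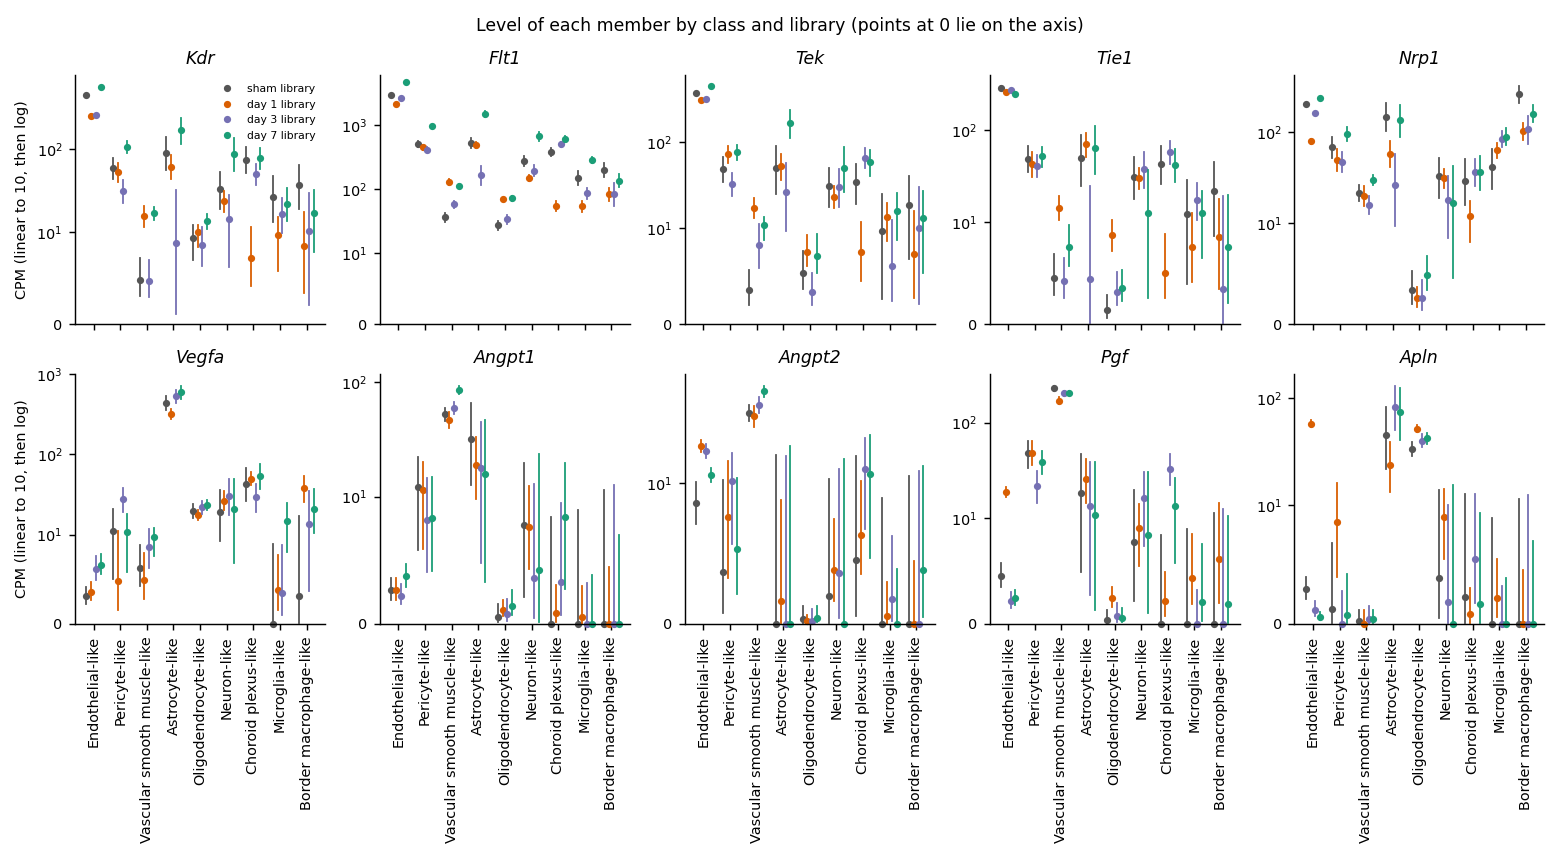
Level of each gene in CPM in the 9 classes with at least 50 cells in every library, with the axis linear up to 10 CPM and logarithmic above; points are libraries and bars are exact 95% Poisson intervals. The 4 receptor tyrosine kinases peak in endothelial-like cells, Pgf, Angpt1 and Angpt2 in vascular smooth muscle-like cells, and Vegfa in astrocyte-like cells.

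The bases before the start of 3 genes are shown because their endothelial levels differed in direction: Apln was high on day 1 only, Kdr was low on days 1 and 3, and Flt1 was high on day 7. The sequences are the 250 bases upstream of the RefSeq start on build GRCm38.p6, written 5′ to 3′ on the strand of the gene, which is the minus strand for all 3. Capitals mark the core of the hypoxia response element, searched as ACGTG and GCGTG on both strands (the first is also contained in the E-box CACGTG).
Apln, chrX:48034854-48035103: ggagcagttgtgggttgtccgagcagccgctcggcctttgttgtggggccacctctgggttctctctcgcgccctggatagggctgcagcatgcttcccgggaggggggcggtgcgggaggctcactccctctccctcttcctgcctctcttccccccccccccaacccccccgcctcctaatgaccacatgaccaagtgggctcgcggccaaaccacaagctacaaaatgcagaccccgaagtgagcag
Kdr, chr5:75978456-75978705: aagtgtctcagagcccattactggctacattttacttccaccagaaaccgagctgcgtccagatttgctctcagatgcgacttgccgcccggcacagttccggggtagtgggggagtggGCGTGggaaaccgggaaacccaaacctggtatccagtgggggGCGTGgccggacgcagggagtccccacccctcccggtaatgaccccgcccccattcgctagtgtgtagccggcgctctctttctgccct
Flt1, chr5:147726012-147726261: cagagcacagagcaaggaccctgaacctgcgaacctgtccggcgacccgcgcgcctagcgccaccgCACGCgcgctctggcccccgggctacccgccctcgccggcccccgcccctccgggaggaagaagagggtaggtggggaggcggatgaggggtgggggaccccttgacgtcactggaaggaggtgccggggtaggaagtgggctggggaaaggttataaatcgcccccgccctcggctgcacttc
No core was found in these 250 bases of Apln, 2 were found for Kdr and 1 for Flt1, where it lies on the other strand and so reads CACGC in the strand shown. A core was present in 38.6% of all 32851 promoters of the same length, and in 16.7% there were 2 or more. Of the 10 genes, 8 had a promoter in the table. A match is a description of letters, and binding was not measured.

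Kdr, the main VEGF receptor (chromosome 5, 75932827 to 75978458, minus strand, GENCODE vM21 on GRCm38), stood in endothelial-like cells at 445 CPM in sham, 254 on day 1, 255 on day 3 and 567 on day 7. The day 1 and day 3 libraries lay below sham and the day 7 library above it. On days 1, 3 and 7 the ratio to sham was 0.571 (95% interval 0.548 to 0.594), 0.572 (0.549 to 0.596) and 1.27 (1.23 to 1.31). The day 3 value differed between zones of the vascular tree: 0.772 (0.733 to 0.813) in cells gated as capillary, 0.492 (0.424 to 0.570) in arterial cells and 0.381 (0.339 to 0.429) in venous cells. In capillary cells alone the day 3 ratio missed the 1.5-fold limit that is used for the counts below. On day 1 the ratio was 0.718 (0.619 to 0.831) in arterial cells, which also missed it, 0.572 (0.543 to 0.602) in capillary cells and 0.495 (0.439 to 0.557) in venous cells. When every cell was thinned to 1000 UMIs, the share of endothelial-like cells with a Kdr UMI was 35.5% (33.9 to 37.1), 22.8% (21.6 to 24.1), 20.5% (19.3 to 21.8) and 40.2% (39.0 to 41.5). In oligodendrocyte-like cells Kdr lay between 8.63 and 13.4 CPM in all 4 libraries.

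Nrp1, a co-receptor for VEGF-A and for class 3 semaphorins (chromosome 8, 128358604 to 128503363, plus strand), stood at 203, 80.1, 163 and 237 CPM in endothelial-like cells. The day 1 library was the lowest, at 0.394 (0.368 to 0.421) of sham. The day 3 ratio was 0.799 (0.757 to 0.844) and the day 7 ratio 1.17 (1.11 to 1.22). By zone the day 3 ratio was 1.08 (1.01 to 1.16) in capillary, 0.824 (0.714 to 0.952) in arterial and 0.536 (0.434 to 0.665) in venous cells. The low day 1 level was present in each zone, with ratios of 0.483 (0.400 to 0.581) in arterial, 0.406 (0.371 to 0.444) in capillary and 0.412 (0.323 to 0.524) in venous cells. A microRNA gene, Mir1903, lies inside Nrp1 on the same strand.

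Flt1, which codes for VEGFR1 (chromosome 5, 147561604 to 147726011, minus strand), gave between 31910 UMIs (day 1) and 93074 UMIs (day 7) in endothelial-like cells. Its level was 2944 CPM in sham, 2146 on day 1, 2696 on day 3 and 4737 on day 7. The 3 ratios to sham were 0.729 (0.718 to 0.739), 0.916 (0.903 to 0.928) and 1.61 (1.59 to 1.63). With cells thinned to 1000 UMIs the day 7 ratio was 1.45, under the 1.5-fold limit. By zone it was 1.71 (1.68 to 1.73) in capillary cells, and 1.46 in both arterial and venous cells. The day 3 ratio was 1.06 (1.04 to 1.08) in capillary, 0.898 (0.869 to 0.928) in arterial and 0.834 (0.793 to 0.878) in venous cells. In oligodendrocyte-like cells Flt1 read 27.4, 69.2, 33.8 and 72.1 CPM, and the 6 endothelial markers summed to 121, 505, 242 and 187 CPM in the same cells. The part of free endothelial RNA in these values was not tested.

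Tek, the angiopoietin receptor Tie2 (chromosome 4, 94739289 to 94874976, plus strand), and Tie1, its partner receptor (chromosome 4, 118471191 to 118490061, minus strand), differed less. Tek stood at 373, 304, 314 and 443 CPM in endothelial-like cells, with ratios to sham of 0.816 (0.784 to 0.849), 0.843 (0.810 to 0.877) and 1.19 (1.15 to 1.23). Tie1 stood at 289, 257, 272 and 243 CPM, with ratios of 0.890 (0.852 to 0.930), 0.943 (0.903 to 0.985) and 0.843 (0.809 to 0.879). Neither passed 1.5-fold on any day over all endothelial-like cells, but Tek in venous cells did so on day 1, at 0.626 (0.550 to 0.713). Tie1 was the only one of the 5 receptors below sham on day 7.

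A gene was counted in a comparison where it reached 20 CPM in either library. In endothelial-like cells 6 of the 10 members were counted on day 1, and 5 on day 3 and on day 7; Vegfa, Angpt1, Angpt2 and Pgf were counted on no day. Apln entered the day 1 count only through its high day 1 level. One member was at least 1.5-fold higher on day 1 (Apln), against a background of 5.24% of 6789 genes, and 2 were at least 1.5-fold lower (Kdr and Nrp1), against 9.84%. On day 3 none was higher, with a background of 5.61%, and 1 was lower (Kdr), with a background of 5.72%. On day 7, 1 was higher (Flt1), with a background of 11.8%, and none was lower, with a background of 3.8%. The median log2 ratio of all genes counted was -0.10 on day 1, -0.01 on day 3 and 0.09 on day 7. Among the ligands under 20 CPM, Pgf passed 1.5-fold on all 3 days, Angpt2 on days 1 and 3, Apln on days 3 and 7 and Vegfa on days 3 and 7. Vegfa read 3.10, 3.56, 6.15 and 6.62 CPM in endothelial-like cells from 45, 53, 89 and 130 UMIs. Its day 3 ratio of 1.98 (1.37 to 2.90) was 0.882 after thinning and 0.702 in capillary cells, and its day 7 ratio of 2.13 (1.51 to 3.06) was 1.31 and 1.24, both under 1.5-fold. Arterial cells held 61 of the 89 UMIs on day 3 and 85 of the 130 on day 7, and there the ratios were 2.06 (1.23 to 3.61) and 2.15 (1.31 to 3.70), both past 1.5-fold. Angpt1 read 2.21 to 3.72 CPM in these cells and passed 1.5-fold on no day.

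**Figure D2:**
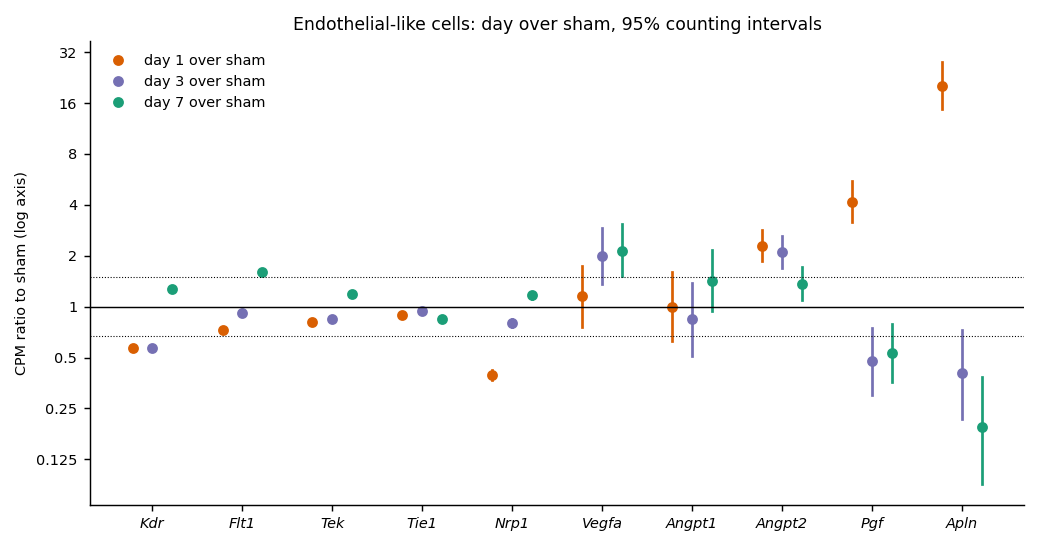
Ratio of the level on each day to the sham library in endothelial-like cells, on a log axis, with exact conditional 95% intervals and dotted lines at 1.5-fold. Apln on day 1 stands at 20.1 and Pgf at 4.17, Nrp1 on day 1 at 0.394, and Flt1 on day 7 at 1.61.

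Apln (chromosome X, 48025146 to 48034853, minus strand) showed the widest fold range of the 10 genes in endothelial-like cells, from its lowest to its highest library. Its level was 2.90 CPM in sham, 58.1 on day 1, 1.17 on day 3 and 0.560 on day 7, from 42, 864, 17 and 11 UMIs. The day 1 library stood apart from the other 3. The day 1 ratio to sham was 20.1 (14.7 to 28.0), and those of days 3 and 7 were 0.405 (0.216 to 0.728) and 0.193 (0.0898 to 0.382). In sham 1 cell held 27 of the 42 UMIs. The size of the day 1 ratio depended on which cells were counted: 6.87 in capillary cells alone and 41.6 when cells of up to 6000 genes were let in. The day 3 ratio was 1.13 with the latter cells, on the other side of 1.

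The day 1 Apln UMIs came from few cells. Of 5265 endothelial-like cells, 204 (3.87%, interval 3.37 to 4.43) had at least 1, and these held 4.24 UMIs each on average and up to 26. The cells with a UMI numbered 11 in sham (0.295%, 0.147 to 0.527), 13 on day 3 (0.292%, 0.155 to 0.498) and 10 on day 7 (0.151%, 0.0726 to 0.278). After thinning to 1000 UMIs the shares were 0.168%, 2.39%, 0.117% and 0.0487%. As a background, the thinned day 1 share was 0% (0 of 813 cells, interval up to 0.453) in vascular smooth muscle-like cells, at a median depth of 3974 UMIs against 2215 in endothelial-like cells.

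The zone gates placed the Apln cells away from the arteries. On day 1, without thinning, 1 of 634 arterial cells had an Apln UMI (0.158%, 0.00399 to 0.876). This compares with 62 of 2892 capillary cells (2.14%, 1.65 to 2.74) and 69 of 700 venous cells (9.86%, 7.75 to 12.3). A further 72 were found among 1039 cells that no gate took (6.93%, 5.46 to 8.65). The level was 0.463 CPM in arterial, 25.2 in capillary, 118 in venous and 134 in ungated cells. In sham the arterial cells held no Apln UMI, which allows up to 1.75 CPM, and on days 3 and 7 they held 1 and 2.

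**Figure D3:**
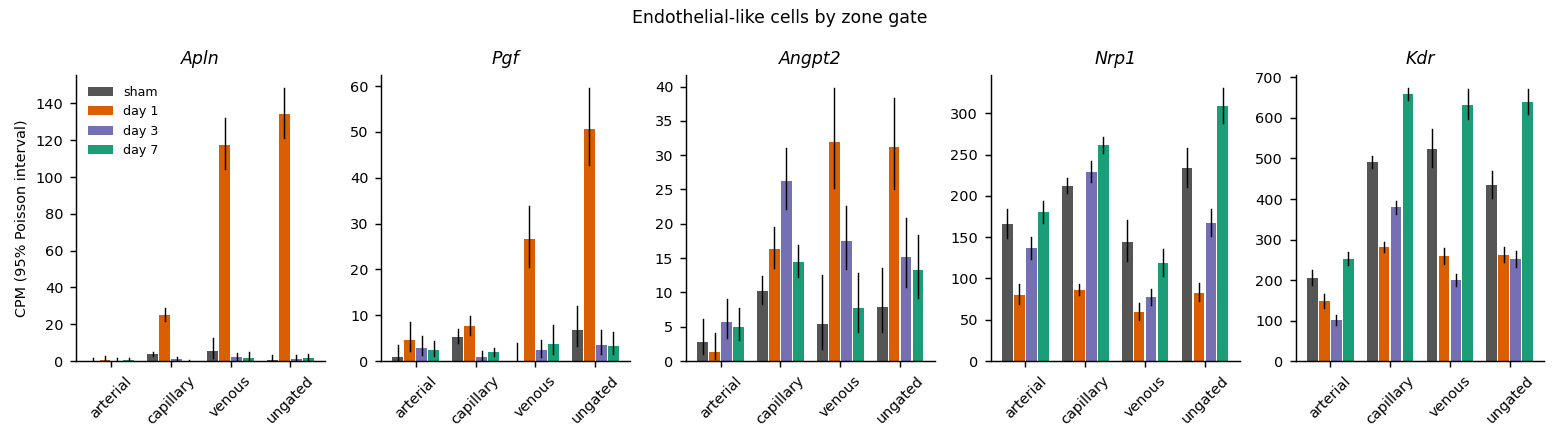
Level in CPM of Apln, Pgf, Angpt2, Nrp1 and Kdr in endothelial-like cells split by arterial, capillary and venous marker gates and in cells that no gate took; bars are libraries and lines are exact 95% Poisson intervals. Apln on day 1 reads 118 CPM in venous and 0.463 CPM in arterial cells, whereas Nrp1 on day 1 is the lowest library in every zone.

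Pgf and Angpt2 were higher in the day 1 cells that held Apln. Among endothelial-like cells of day 1 thinned to 1000 UMIs, the 110 cells with an Apln UMI read 382 CPM of Pgf, against 6.01 in the 4495 cells without, a ratio of 63.6 (38.3 to 107) from 42 and 27 UMIs. Angpt2 read 355 CPM against 14.2, a ratio of 24.9 (16.3 to 37.7). Without thinning, 49 of the 89 cells with Pgf (55.1%) and 68 of the 178 cells with Angpt2 (38.2%) had an Apln UMI, and 29 cells held all 3 ligands. Of the 9 other members 7 passed 20 CPM in either group of cells, and Pgf and Angpt2 were above 1 and Flt1 and Tek below 1 with intervals that left out 1, against a background of 9.13% of 7095 genes above and 6.26% below. Pgf and Angpt2 passed 20 CPM only through the Apln cells, where they were high. Among the receptors the ratio was 0.445 (0.367 to 0.534) for Flt1, 0.579 (0.358 to 0.889) for Tek, 1.18 (0.830 to 1.64) for Kdr, 1.13 (0.782 to 1.59) for Tie1 and 0.997 (0.474 to 1.85) for Nrp1. The cells were not split by zone here. On day 1 Flt1 read 1342 CPM in venous, 2041 in ungated, 2332 in capillary and 2574 in arterial cells. Tek read 252, 274, 294 and 436 CPM in the same order. The part of zone in these ratios was not tested.

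Of the 12 tip cell genes listed from endothelial biology, 11 passed 20 CPM in the cells with or without Apln, and 7 of these read above 1 with an interval that left out 1 in the Apln cells, against the same background of 9.13%. Trp53i11, Cxcr4 and Nid2 passed 20 CPM only through the Apln cells, in which 3 UMIs make 27.3 CPM, so the count over those that passed is a description. The list was also chosen with earlier results of these data known. None read below 1 with such an interval, against 6.26%. Trp53i11 read 264 CPM against 12.9, at a ratio of 20.4 (12.6 to 32.4). Adm, which codes for the vasodilator peptide adrenomedullin, had a ratio of 8.06 (6.18 to 10.4). Cxcr4, a chemokine receptor, had 7.43 (1.86 to 21.9) from 4 and 22 UMIs. Plaur, the urokinase receptor, had 5.07 (3.42 to 7.30), Mcam, an adhesion molecule, 4.85 (2.57 to 8.46), the laminin gene Lama4 3.71 (2.43 to 5.48), and Igfbp3 1.56 (1.15 to 2.08). Dll4, the Notch ligand of tip cells, read 0.861 (0.391 to 1.65), Pdgfb 1.02 (0.764 to 1.34), Unc5b 0.786 (0.212 to 2.04) and Nid2 1.43 (0.288 to 4.31). Esm1 had 1 UMI in the Apln cells and 15 in the others, under 20 CPM in both groups. The endothelial markers Cldn5 and Pecam1 had ratios of 0.820 (0.758 to 0.886) and 1.27 (1.02 to 1.55). Before thinning, the Apln cells had a median of 4727 UMIs against 2166 in the others and a median mitochondrial share of 2.19% against 2.78%, and 4 of the 204 were among the highest doublet scores. The cells all came from 1 library, so these ratios describe cells and not animals.

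**Figure D4:**
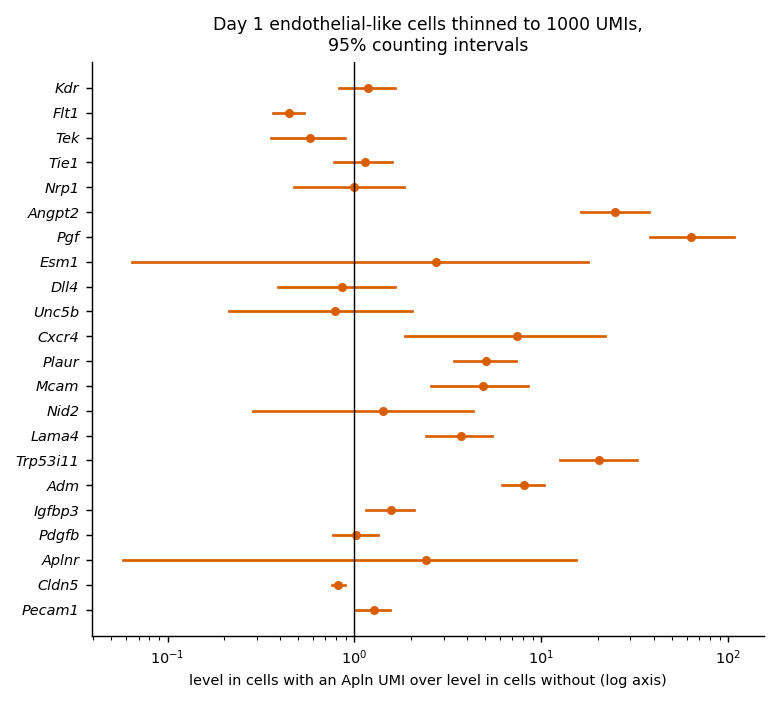
Ratio of the level in day 1 endothelial-like cells with an Apln UMI (110 cells) to the level in those without (4495 cells), on a log axis, after thinning each cell to 1000 UMIs, for the other members and the tip cell genes with a UMI in the Apln cells, and for Aplnr, Cldn5 and Pecam1; lines are exact conditional 95% intervals. Pgf stands at 63.6 and Angpt2 at 24.9, while Flt1 stands at 0.445.

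Over all endothelial-like cells, Pgf, the VEGFR1 ligand (chromosome 12, 85166635 to 85177790, minus strand), read 4.48, 18.7, 2.14 and 2.39 CPM. The day 1 ratio to sham was 4.17 (3.17 to 5.55), or 1.44 (0.969 to 2.14) in capillary cells alone, and the later ones were 0.478 (0.301 to 0.744) and 0.534 (0.359 to 0.789). The 65 Pgf UMIs of the sham library lay in 12 cells. The share of cells with a Pgf UMI was 0.322% in sham, 1.69% on day 1, 0.583% on day 3 and 0.439% on day 7, and 0.168%, 0.760%, 0.164% and 0.179% after thinning. On day 1 Pgf read 4.63 CPM in arterial, 7.62 in capillary, 26.6 in venous and 50.6 in ungated cells. Angpt2, the Tie2 ligand of remodelling vessels (chromosome 8, 18690263 to 18741562, minus strand, inside Mcph1 on the opposite strand), read 8.55, 19.6, 17.9 and 11.7 CPM. Its ratios were 2.30 (1.86 to 2.86), 2.09 (1.68 to 2.61) and 1.36 (1.09 to 1.71). In capillary cells Angpt2 was highest on day 3, at 26.3 CPM against 10.2 in sham, and in venous cells on day 1, at 31.9 against 5.38.

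The main source of Pgf was vascular smooth muscle-like cells, at 229, 170, 203 and 207 CPM from 1106, 559, 964 and 1597 UMIs. They gave 79.1%, 43.1%, 78.8% and 80.5% of all Pgf UMIs among kept cells, while the endothelial-like part was 4.65%, 21.4%, 2.53% and 2.37%. In smooth muscle-like cells the sham library was the highest, with ratios to it of 0.743 (0.670 to 0.823), 0.887 (0.813 to 0.968) and 0.902 (0.835 to 0.975). Pericyte-like cells read 47.5, 48.4, 21.5 and 38.7 CPM, and the day 3 ratio was 0.454 (0.271 to 0.753). A limit of 5% on mitochondrial UMIs moved the smooth muscle-like ratios to 0.430, 0.535 and 0.698.

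Angpt1, the ligand that activates Tie2 (chromosome 15, 42424723 to 42676977, minus strand, overlapping Gm17473 on the opposite strand), was also highest in smooth muscle-like cells. It read 52.2, 46.6, 59.2 and 85.9 CPM in these cells and 8.17 to 12.2 CPM in pericyte-like cells. Astrocyte-like cells read 31.7, 19.0, 17.6 and 15.9 CPM, and every interval of their ratio to sham included 1. In smooth muscle-like cells the day 7 library was the highest, at 1.65 (1.42 to 1.91) times sham, a ratio that was 1.45 under the 5% mitochondrial limit. The day 1 and day 3 ratios were 0.893 (0.725 to 1.10) and 1.13 (0.954 to 1.35). Angpt2 in the same cells read 35.8, 33.8, 41.3 and 53.2 CPM, with a day 7 ratio of 1.48 (1.24 to 1.78). Under the 5% mitochondrial limit that ratio was 0.731, below 1, and after thinning it was 1.69. Among kept cells, smooth muscle-like cells gave 44.6% of Angpt2 UMIs in sham and 19.7% on day 1, when endothelial-like cells gave 51.8%.

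In vascular smooth muscle-like cells 5 of the 10 members passed 20 CPM on each day. On day 1, 1 was higher (Flt1), with a background of 7.25%, and none lower, with a background of 9.43%. On day 3, 1 was higher (Flt1), against 3.98%, and none lower, against 2.93%. On day 7, 2 were higher (Flt1 and Angpt1), against 19.7%, and none lower, against 5.16%. Flt1 read 36.2, 130, 58.1 and 113 CPM in these cells, and the 6 endothelial markers together read 168, 1336, 398 and 314 CPM. Without the cells of highest doublet score the Flt1 ratio was 1.27 on day 1 and 0.974 on day 3, in place of 3.58 (2.99 to 4.29) and 1.60 (1.32 to 1.95), while the day 7 ratio of 3.12 (2.65 to 3.69) passed 1.5-fold under every setting tried. With each cell gated on its own markers, the day 1 and day 3 ratios both lay below 1. In pericyte-like cells 6, 7 and 6 members passed 20 CPM on days 1, 3 and 7. None was higher on day 1, against a background of 13.7%, and none lower, against 12%. On day 3, 1 was higher (Vegfa), against 13.5%, and 2 lower (Kdr and Pgf), against 7.35%; Vegfa passed 20 CPM on that day only, through its high level. On day 7, 3 were higher (Kdr, Flt1 and Tek), against 23.6%, and none lower, against 9.31%. The endothelial markers summed to 3135, 3885, 2151 and 2464 CPM in pericyte-like cells. Without the cells of highest doublet score the day 7 ratios were 0.770 for Kdr, 1.27 for Flt1 and 1.31 for Tek, in place of 1.81, 1.88 and 1.57.

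Other genes of the pathway also passed 1.5-fold in the mural cells. In pericyte-like cells 16, 15 and 16 of the 32 listed genes were counted on days 1, 3 and 7, of which 1, 2 and 4 were higher and 4, 5 and 1 lower, to be read against the background shares just given. Plaur and Igfbp3 were counted only through the library in which they were high. Nrp2 on day 1, Plxnd1 on days 1 and 3 and Dll4 on days 3 and 7 were counted only through sham, at 21.9 CPM, and make up 2 of the 4, 2 of the 5 and the only 1 of the lower calls. Mcam, at 313, 404, 512 and 329 CPM, and Adm, at 47.5, 59.8, 183 and 37.9 CPM, were higher on day 3, with ratios of 1.64 (1.42 to 1.89) and 3.85 (2.74 to 5.54). Foxo1 was lower on days 1 and 3, at 0.559 (0.346 to 0.894) and 0.438 (0.271 to 0.699). Plaur was higher on day 1, at 5.72 (1.72 to 29.8) from 3 UMIs in sham and 22 on day 1, and Igfbp3 on day 7, at 5.77 (2.07 to 22.3) from 4 and 37. Nos3 and Sema3c, a semaphorin, were higher on day 7, at 1.70 (1.06 to 2.80) and 1.51 (1.08 to 2.16). Unc5b was lower on day 1, at 0.614 (0.434 to 0.865), and Pdgfb, Ptprb and Plxnd1 on day 3, at 0.626 (0.449 to 0.875), 0.579 (0.460 to 0.729) and 0.441 (0.198 to 0.951). Ptprb is also an endothelial gene, at 1007 to 1629 CPM in endothelial-like cells. The endothelial marker sum in pericyte-like cells, given above, was lowest on day 3. The part of endothelial RNA in the pericyte-like values was not tested. The calls of Nrp2 on days 1 (0.563) and 7 (1.56), Plxnd1 on day 1 (0.650) and Dll4 on days 3 (0.610) and 7 (0.658) rest on 13 to 45 UMIs a library, and their intervals included 1.

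In vascular smooth muscle-like cells 10, 9 and 9 of the 32 genes were counted, of which 2, 0 and 2 were higher, beside 7.25%, 3.98% and 19.7% of all genes, and 1, 1 and 0 lower, beside 9.43%, 2.93% and 5.16%. Sema3c on day 1 and Sema3f on day 7 passed 20 CPM only through those libraries, and Ptprb on day 3 only through sham. Trp53i11 was lower on day 1, at 0.623 (0.563 to 0.690), and Sema3f higher on day 7, at 1.77 (1.35 to 2.35). Sema3c read 3.73, 25.9, 7.58 and 12.7 CPM, and the day 1 library stood at 6.94 (4.14 to 12.3) times sham. Ptprb was at 2.78 (2.21 to 3.51), 0.667 (0.493 to 0.898) and 1.69 (1.36 to 2.11) of sham. Both are also endothelial genes, Sema3c at 381 to 544 CPM and Ptprb at 1007 to 1629 CPM in endothelial-like cells, and the endothelial marker sum in the smooth muscle-like cells, given above, was likewise highest on day 1. The part of endothelial RNA in these values was not tested.

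**Figure D5:**
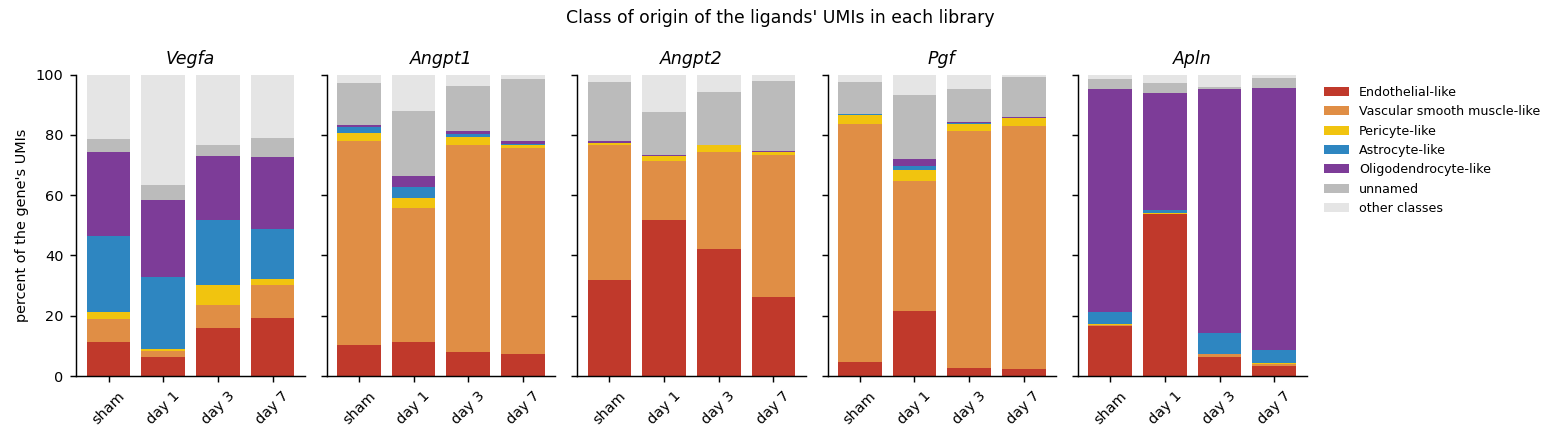
Percent of each ligand's UMIs among the kept cells of a library that came from each class, stacked to 100. The endothelial-like part of Apln is 53.6% on day 1 and 16.5%, 6.42% and 3.24% in the sham, day 3 and day 7 libraries.

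Among kept cells, oligodendrocyte-like cells, the myelin-forming glia, held most Apln UMIs in 3 of the 4 libraries. Their share was 74.0% in sham, 38.8% on day 1, 80.8% on day 3 and 87.1% on day 7. Kept cells held 254 of 645 Apln UMIs in sham and 1612 of 3730 on day 1. On days 3 and 7 they held 265 of 428 and 340 of 796. The other barcodes are not part of these shares. In oligodendrocyte-like cells the Apln level was 33.7, 52.0, 40.2 and 42.3 CPM from 188, 625, 214 and 296 UMIs, and the sham library was the lowest. The ratios to sham were 1.54 (1.31 to 1.83), 1.19 (0.976 to 1.46) and 1.26 (1.04 to 1.52), and the first was 1.39 with cells of up to 6000 genes. The share of cells with an Apln UMI after thinning was 2.74% (1.68 to 4.19), 5.23% (4.36 to 6.22), 3.89% (2.68 to 5.45) and 3.66% (2.64 to 4.93). Vascular smooth muscle-like cells, with median depths of 3974 to 7142 UMIs, had 1, 0, 2 and 3 Apln UMIs in all. Astrocyte-like cells read 45.3, 23.7, 83.7 and 74.2 CPM from only 10, 15, 19 and 14 UMIs, and all 3 intervals of the ratio to sham included 1.

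Vegfa, the central VEGF ligand (chromosome 17, 46016993 to 46032369, minus strand), was highest in astrocyte-like cells in every library. It read 444 (360 to 541), 319 (277 to 367), 533 (442 to 637) and 594 (489 to 714) CPM, from 89, 272, 76 and 72 cells. The day 1 library was the lowest, at 0.720 (0.563 to 0.926) of sham. The ratios of 1.20 (0.914 to 1.59) on day 3 and 1.34 (1.01 to 1.77) on day 7 turned to 0.717 and 0.971 when cells were thinned to 1000 UMIs. The shares of astrocyte-like cells with a Vegfa UMI after thinning were 37.1% (25.9 to 49.5), 28.2% (22.2 to 34.7), 33.8% (23.0 to 46.0) and 45.8% (32.7 to 59.2). The intervals overlap each other. In these cells the endothelial markers summed to 2571, 4675, 1560 and 5646 CPM and the astrocyte markers to 7395, 7034, 10555 and 8387 CPM. The part of this mixture in the Vegfa values was not tested.

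Other sources of Vegfa were lower per cell. Oligodendrocyte-like cells read 17.6 to 23.5 CPM. Being numerous, they gave 21.1% to 28.0% of the Vegfa UMIs of kept cells, close to the 16.5% to 24.9% from astrocyte-like cells. Kept cells held 393 of 2126 Vegfa UMIs in sham and 836 of 2339 on day 1. On days 3 and 7 they held 555 of 1741 and 680 of 2146. The other Vegfa UMIs are not part of these shares. Choroid plexus-like cells read 29.2 to 53.5 CPM. Border macrophage-like cells read 3.08, 37.8, 13.6 and 20.9 CPM from 1, 31, 4 and 11 UMIs, a day 1 ratio of 12.3 (2.04 to 500). In pericyte-like cells the day 3 library was the highest, at 27.5 CPM against 10.95 in sham, 4.74 on day 1 and 10.6 on day 7, from 9, 5, 37 and 14 UMIs, a day 3 ratio of 2.51 (1.19 to 5.91). Fibroblast-like cells passed 50 cells on day 1 only and then read 97.7 CPM (72.9 to 128).

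Outside the endothelium Nrp1 differed in direction between classes. In border macrophage-like cells it read 265 CPM in sham, 104 on day 1, 109 on day 3 and 161 on day 7, with the sham library the highest. The ratios were 0.391 (0.286 to 0.534), 0.410 (0.264 to 0.622) and 0.609 (0.446 to 0.832). With each cell gated on its own markers they were 0.511, 0.279 and 1.52, so that the day 7 ratio turned. The make-up of this class differed between libraries: its own 5 markers summed to 6284, 7488, 3496 and 2219 CPM, the monocyte list to 1643, 651, 1733 and 2810 CPM, and the neutrophil list to 27.7, 57.3, 5940 and 150 CPM. In microglia-like cells it read 41.2, 63.9, 85.7 and 89.9 CPM, with sham the lowest and ratios of 1.55 (0.929 to 2.75), 2.08 (1.24 to 3.71) and 2.18 (1.29 to 3.92). The microglia-like sham value rests on 17 UMIs in 95 cells, and the day 1 ratio was 1.32 with cells of up to 6000 genes and 1.23 after thinning. Astrocyte-like cells read 149, 58.5, 26.4 and 138 CPM from 33, 37, 6 and 26 UMIs, and the endothelial markers in them summed to 2571, 4675, 1560 and 5646 CPM, with both lowest on day 3. The erythrocyte list in microglia-like cells summed to 5842, 1056, 3376 and 3781 CPM, highest in sham, where Nrp1 was lowest. Endothelial markers summed to 1513, 687, 754 and 578 CPM in border macrophage-like cells and to 732, 651, 729 and 1052 CPM in microglia-like cells. The 8 immediate-early genes, which respond to tissue handling, summed to 15463, 5259, 11271 and 10379 CPM in the former and to 33870, 9707, 20606 and 27243 CPM in the latter. The part of these lists in the Nrp1 values was not tested.

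Across the 36 class and library levels (9 classes in 4 libraries), log2(CPM + 10) of Kdr was most like that of Flt1 (Pearson r 0.96), Ptprb and Robo4. For Flt1 the nearest genes were Abcb1a, Ptprb and Cxcl12, for Tek they were Rasip1, Cyyr1 and Sox18, and for Tie1 Rasip1, Egfl7 and AU021092, all with r of 0.96 to 0.98. For Nrp1 they were Rnf213, Sp100 and Il10rb (r 0.88 to 0.91). Vegfa was nearest to Slc27a1, Prdx6 and Nwd1 (r 0.93 to 0.96), and Apln to Omg, Kcnj10 and Acy1 (r 0.87 for each). Pgf was nearest to Rbpms2, Pde3a and Rasl11a (r 0.94 for each), Angpt1 to Ccdc3, Dgkb and Gm11627 (r 0.91 to 0.93), and Angpt2 to Actn1, Ptgis and Col18a1 (r 0.93 to 0.94). The 36 levels share 4 libraries and are not independent.

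The other genes of the pathway were listed by role. Among the 8 other ligands, 3, 4 and 2 passed 20 CPM in endothelial-like cells on days 1, 3 and 7. Vegfc, the lymphatic growth factor, was lower on day 1, at 38.9 CPM against 70.3 in sham (0.553, 0.499 to 0.613). Sema3f, a semaphorin, was higher on day 3, at 25.8 CPM against 14.96 (1.72, 1.45 to 2.04), and entered the count only through that library. No other ligand at 20 CPM passed 1.5-fold. Under that level Vegfd did so on day 7, at 13.7 CPM against 9.10 (1.504, 1.22 to 1.87), and Sema3a, Angpt4 and Apela had at most 8 UMIs a library. Of the 5 other receptors and partners 4 passed 20 CPM (Flt4, Nrp2, Ptprb and Plxnd1) and none of these passed 1.5-fold on any day. Nrp2, the second neuropilin, came nearest, at 0.669 (0.595 to 0.751) on day 1, the day of the low Nrp1 level. Ptprb, the phosphatase that silences Tie2, stood at 1350, 1052, 1007 and 1629 CPM. The apelin receptor Aplnr was below 20 CPM in every library of endothelial-like cells, at 9.58, 3.36, 4.07 and 2.95 CPM from 139, 50, 59 and 58 UMIs, with the sham library the highest.

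Of the 7 signalling genes 5 passed 20 CPM, and of these only Foxo1, a transcription factor restrained by angiopoietin and VEGF signalling, passed 1.5-fold, at 0.663 (0.610 to 0.721) on day 1. Nos3, the endothelial nitric oxide synthase, read 178, 194, 182 and 250 CPM. Of the 12 tip cell genes 9, 9 and 10 passed 20 CPM. On day 1, 4 were higher and 2 lower: Plaur at 3.24 (2.87 to 3.67), Igfbp3 at 3.17 (2.98 to 3.38), Adm at 2.22 (2.02 to 2.43) and Mcam at 2.06 (1.74 to 2.44), against Unc5b at 0.551 (0.499 to 0.607) and Nid2 at 0.610 (0.519 to 0.717). The same 4 genes were higher on day 3, with ratios of 1.89, 1.93, 1.55 and 2.18 in that order, and none was lower. On day 7 Igfbp3, at 1.92 (1.80 to 2.05), and Esm1, at 3.20 (2.61 to 3.95), were higher and none was lower. Mcam on days 1 and 3 and Esm1 on day 7 passed 20 CPM only through those libraries, and Nid2 on day 1 only through sham. Trp53i11, under 20 CPM over all endothelial-like cells, was at 1.68 (1.39 to 2.05) on day 1 and 0.664 (0.529 to 0.832) on day 7 and was not counted. Over the 32 pathway genes that are not members, 4 of 21, 5 of 22 and 2 of 21 counted were higher on days 1, 3 and 7, beside 5.24%, 5.61% and 11.8% of all genes, and 4, 0 and 0 were lower, beside 9.84%, 5.72% and 3.8%. Esm1, a secreted proteoglycan of tip cells and a VEGF target, read 7.93, 3.56, 18.8 and 25.3 CPM. Its lowest library was day 1, when Apln was highest. Esm1 was a leading gene of 1 endothelial cluster, with Plvap and Gpihbp1. That cluster held 83 of 3732 endothelial-like cells in sham, 48 of 5265 on day 1, 97 of 4459 on day 3 and 134 of 6611 on day 7. The part of this cluster in the Esm1 level was not tested. The median ratio of the tip cell genes counted was 0.966 on day 1, 1.18 on day 3 and 1.11 on day 7, beside 0.931, 0.996 and 1.06 for all genes counted in endothelial-like cells.

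The endothelial-like cells of all 4 libraries carried the 6 endothelial markers at a summed level of 18784 to 28292 CPM. Among markers of other cells in them, the choroid plexus list was the highest, at 1404, 2211, 1687 and 891 CPM, with 1 of its 5 genes reaching 20 CPM. The erythrocyte list summed to 399, 34.1, 152 and 218 CPM and the neuron list to 214 to 268 CPM, and the pericyte list stayed between 29.6 and 63.8 CPM. The immediate-early genes read 13096, 11945, 10162 and 16717 CPM. The zone gates took different shares of the endothelial-like cells in each library: capillary cells were 65.8%, 54.9%, 39.6% and 56.7%, and venous cells 7.05%, 13.3%, 23.1% and 9.27%.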

How the data were processed

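The deposited files are counts of UMIs per gene and cell barcode, which the authors made with Cell Ranger. The submitters' processing notes name Cell Ranger 3.0.1, Seurat 4.1.2 and the human build GRCh38, but the matrix header names Cell Ranger 4.0.0 and the gene IDs are those of mouse, of which 99.9% matched GENCODE vM21. The counting annotation is not given in the sources used here.

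The filter of the study's methods was applied, with a lower limit of 200 and an upper limit of 3000 genes per cell and no more than 10% of UMIs from mitochondrial genes. It left 44360 cells, fewer in every library than the study states after the same filter, so the cell sets are not identical. Libraries of kept cells were integrated and clustered with Seurat 5.3.0 (R 4.3.3; 2000 variable genes, 30 dimensions, resolution 1). The 42 member and pathway genes were left out of the clustering genes. Clusters were named from 18 marker lists. The authors' cell annotation was not used here. Of the 6 unnamed clusters, the largest (5272 cells, endothelial candidate) had a median of 940 UMIs, and 2 with a candidate class but a low marker level were kept unnamed by a rule set after seeing the clusters: 0.807%, 2.59%, 1.79% and 1.14% of cells (microglia candidate) and 0.489%, 1.11%, 0.288% and 0.271% (astrocyte candidate) in order of time from sham. Doublets stayed in, and leaving out the highest Scrublet scores (scanpy 1.11.5; 9.39% to 14.3% of cells by library, at 0.8% per 1000 barcodes, since the automatic threshold marked 0.225% of the sham cells) was an alternative.

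UMIs were summed per class and library and given as CPM with exact 95% Poisson intervals, ratios with exact conditional binomial intervals and shares with Clopper-Pearson intervals (scipy 1.17.1). All cover counting error only. A gene was counted in a comparison at 20 CPM in either library and called past 1.5-fold. Classes needed 50 cells. Arterial, capillary and venous gates required 2 markers of a zone. Shares of cells in a class were computed after thinning each cell to 1000 UMIs. This left out 152, 660, 196 and 454 endothelial-like cells in order of time. Unthinned shares were given as well for Apln and Pgf, and the Apln shares by zone are unthinned. A class of origin had at least 0.25 of the highest class mean. All 10 members were named in every class of 50 cells, pathway genes by list with values for those past the fold or discussed beside a member, and the 3 most alike genes by Pearson r. Ratios were tested on simulated data. Alternatives were another mitochondrial limit, gene limit, doublet removal, clustering, gate, scaling, thinning, fold and filter, and 1 chosen after seeing the data. Members and lists were chosen with earlier results of these data known.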

Additional observations from a re-analysis of the deposited data

Results flagged for a closer look

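Nrp1 differed in direction between classes, which was not tested. On day 3 its ratio to sham was 2.08 for microglia-like cells, compared with 0.41 for border macrophage-like and 0.177 for astrocyte-like cells, the last from 6 UMIs. On that day the border macrophage-like cells read 5940 CPM of the neutrophil markers, against 27.7 in sham, and 3496 CPM of their own markers, against 6284. On day 7 it was 2.18 in microglia-like and 0.609 in border macrophage-like cells, and the latter turned to 1.52 when each cell was gated on its own markers.

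Cells of over 3000 genes, which the filter removed, held member levels on both sides of the sham library. They numbered 2856, 3452, 1964 and 2647 in order of time and were not assigned to classes, so that their mix of cell types is part of each value. Apln was 5.16 times sham on day 1 in them, at 36.7 CPM against 7.11. Flt1 was 1.84 times and Kdr 1.8 times sham on day 7. Pgf was 1.62 times sham on day 3 and 1.58 times on day 7. Under 20 CPM in both libraries, Apln was 1.56 and Angpt1 2.62 times sham on day 7, and Angpt2 1.67 and 1.82 times on days 3 and 7. On day 1 Flt1 was 0.323, Tek 0.463, Kdr 0.508, Nrp1 0.525 and Tie1 0.592 of sham, and on day 3 Kdr was 0.503 and Apln, under 20 CPM, 0.641.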

How the results depend on the processing

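Of 41 member ratios past 1.5-fold, 364 of 418 values under other settings stayed past 1.5-fold the same way, and 19 ratios did so under every setting tried, the added one (a shallow endothelial cluster counted in) included. The number of members higher on day 1 in endothelial-like cells was 1, and it was 3 with cells of up to 6000 genes, without doublets or with every gene seen in both libraries counted, and 2 without integration or with thinning. The number lower on day 1 was 2, and 1 at a fold of 2. On day 3 the number higher was 0, but 1 without integration or in capillary cells and 2 with every gene seen in both libraries, and the number lower was 1, but 0 in capillary cells or at a fold of 2 and 3 with every gene seen. On day 7 the number higher was 1, but 0 with thinning or at a fold of 2 and 2 with every gene seen, and the number lower was 0, but 2 with every gene seen.

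There were 15 values on the other side of 1 from a called ratio. Under the gate on each cell's own markers these were Nrp1 in border macrophage-like cells on day 7 (1.52), Flt1 in vascular smooth muscle-like cells on days 1 (0.682) and 3 (0.547) and, in astrocyte-like cells, Angpt1 on days 1 (1.6) and 7 (1.82) and Apln on day 7 (0.808). With thinning these were Vegfa in endothelial-like cells on day 3 (0.882) and, in astrocyte-like cells, Angpt1 on day 7 (1.19) and Apln on days 3 (0.739) and 7 (0.89). Vegfa on day 3 was also 0.702 in capillary cells and 0.865 with a background class subtracted. Without doublets these were Kdr in pericyte-like cells on day 7 (0.77) and Flt1 in vascular smooth muscle-like cells on day 3 (0.974), and with cells of up to 6000 genes Apln in endothelial-like cells on day 3 (1.13). The cause was not tested. No paired analysis was possible because each group holds 1 library. Depth limits the members under 20 CPM and the classes of few cells.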
